A study of Mus musculus with 24 samples.

Results

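The Myc, Max and Mxd network was read as 9 genes of the deposited expression table, chosen by gene symbol with no use of their values. They are the activators Myc, Mycn and Mycl, the shared partner Max, and the repressors Mnt, Mga, Mxd3, Mxd4 and Mxi1. All 9 were among the 54242 genes listed and among the 16447 genes tested, those averaging 0.5 or more on the log2(TPM + 1) scale in the 24 libraries. The TPM unit corrects each gene for its length and brings every library to one common sum. RNA-seq had been performed on CGR8 mouse ESCs, a feeder-free embryonic stem cell line, with 3 libraries in each of 8 groups. Cells were transfected with a pool of non-targeting siRNAs (si-CTL) or a pool against Rsl24d1 (si-Rsl24d1), which encodes a factor of large ribosomal subunit assembly. Each pool was used without rescue, or with rescue by doxycycline-induced, siRNA-resistant RSL24D1. Libraries were made from ESCs kept in serum and LIF (day 0) or after 4 days with 10 nM retinoic acid (RA, day 4). The series description has LIF in the RA medium and the study's methods leave it out, so whether day 4 against day 0 also includes the loss of LIF is not settled. All groups share 1 parental line, and the labels describe the cells without rescue as carrying an empty vector. In its polysome profiling the study took the rescue line without doxycycline as the cells without rescue, so whether the vector differed here is not settled. Doxycycline, ectopic RSL24D1 and any difference in vector cannot be told apart in a comparison with against without rescue. The replicates are labelled as independent samples.

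MYC, MYCN and MYCL are basic helix-loop-helix leucine zipper proteins that bind DNA as dimers with MAX, at E-boxes whose core reads CACGTG, and favour growth, ribosome production and cell cycle entry. MNT, MGA and the MXD proteins compete for MAX and the same sites, and repress through the SIN3-HDAC corepressor or, for MGA, through the Polycomb complex PRC1.6, which silences germline genes in ESCs. In ESCs Myc and Mycn act in parallel in self-renewal, and both decline as cells leave pluripotency. The values here are RNA levels, and in bulk samples fewer cells of a type and less RNA per cell cannot be told apart.

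The knockdown was present at day 0 but was not detected at day 4. Rsl24d1 had a log2 fold change of -1.95 (SE 0.07, limma adjusted p = 3.24e-14) in si-Rsl24d1 against si-CTL cells at day 0 without rescue, at 35.7 against 141 TPM. At day 4 without rescue the difference was -0.04 (limma adjusted p = 0.660), and the gene symbol does not separate the ectopic from the endogenous transcript. Another gene on the same strand, Gm20509, shares 226 exonic bases with Rsl24d1, so strand cannot separate their reads there. None of the 12 pluripotency markers was listed at 0 in the cells without rescue at either day. On the deposited scale the median of all tested genes was shifted by -0.11 for rescue against no rescue in si-Rsl24d1 cells at day 0, -0.12 for the same in si-CTL cells, 0.13 for si-Rsl24d1 against si-CTL at day 4 without rescue, -0.10 for day 4 against day 0 in si-CTL cells without rescue, 0.12 for the same with rescue, and 0.14 for the change of the siRNA effect from day 0 to day 4 without rescue. Rescaling each library by the median of ratios brought each of these medians close to 0 (-0.01 to 0.01). For most calls, signs and counts in these comparisons that depended on the scale, both values are given.

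In ESCs, Rsl24d1 knockdown moved members of the network in opposite directions within the activators and within the repressors. Mxd4, Mycn and Mycl rose, Myc, Mga and Mxd3 fell, and Max, Mnt and Mxi1 did not pass the test (limma adjusted p below 0.01 over all genes tested). These 6 of 9 members stand beside 30.4% of all genes tested, 14.3% higher and 16.1% lower. With the added limit of a 1.8-fold change, which defines a differentially expressed gene here, Mxd4 was the only member called, beside 4.18% of all genes. In the same comparison 8 of 12 pluripotency markers fell and none rose, and their summed level was 3547 to 3607 TPM in si-CTL and 2866 to 2936 TPM in si-Rsl24d1 libraries. Their part in the levels of the members was not tested.

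**Figure D1:**
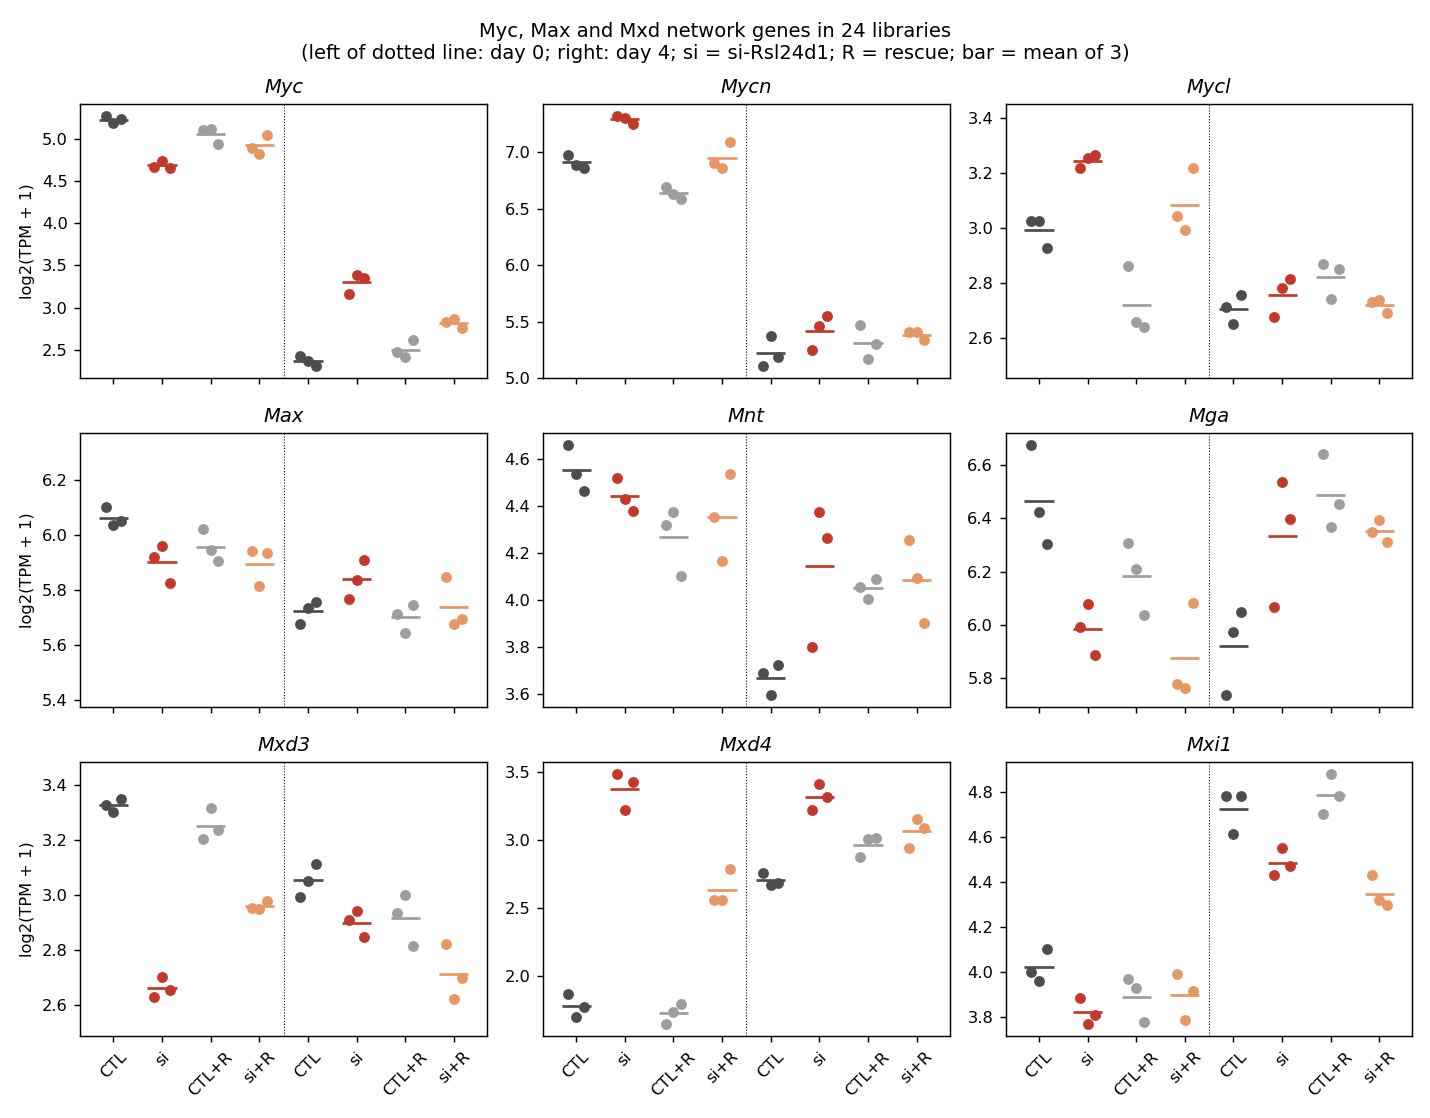
Levels of the 9 genes as log2(TPM + 1) in each library (points) with the mean of 3 (bars), by group, day 0 left and day 4 right of the dotted line. Myc was at 4.66 or above in every day 0 library and at 3.39 or below in every day 4 library, whereas Mxd4 was at 1.87 or below in the 6 si-CTL libraries of day 0 and at 2.56 or above in all other libraries.

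Mycn was the most abundant of the Myc genes in every group. In si-CTL cells at day 0 without rescue it was at 6.98, 6.89 and 6.86 on the log2(TPM + 1) scale, and in si-Rsl24d1 cells at 7.32, 7.30 and 7.25, so that the groups did not overlap. The log2 fold change was 0.38 (SE 0.08, limma adjusted p = 0.000846), from 119 to 156 TPM.

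Myc went the other way. It was at 5.27, 5.18 and 5.23 in si-CTL cells and at 4.66, 4.74 and 4.66 in si-Rsl24d1 cells, a change of -0.54 (SE 0.07, limma adjusted p = 4.48e-06), from 36.4 to 24.8 TPM. Each si-Rsl24d1 library was below each si-CTL library. Mycl, the least abundant, rose by 0.25 (SE 0.07, limma adjusted p = 0.00510), from 6.96 to 8.48 TPM. The Mycl call did not hold when any 1 of 5 of the 6 libraries was left out, all but replicate 1 of si-CTL (adjusted p of 0.0103 to 0.0286, log2 fold change 0.22 to 0.27).

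The 3 Myc genes summed to 170, 160 and 158 TPM in the si-CTL libraries and to 191, 191 and 184 TPM in the si-Rsl24d1 libraries. Within that sum Myc made up 22.4% ± 0.6 (SD, n = 3) in si-CTL cells and 13.1% ± 0.37 in si-Rsl24d1 cells. There were 3.28 ± 0.11 Mycn transcripts per Myc transcript in the former and 6.29 ± 0.21 in the latter, without overlap of the libraries.

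Max, the shared partner of the other members, was at 6.04 to 6.10 in si-CTL and 5.83 to 5.96 in si-Rsl24d1 cells at day 0, 65.9 and 58.9 TPM on average. The libraries did not overlap, but the difference of -0.16 (SE 0.05) did not pass (limma adjusted p = 0.0183, and 0.00423 after median of ratios scaling). Over all 8 groups Max had the narrowest span of the 9 genes, from 5.70 to 6.06 in group means.

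Mxd4 (Mad4), whose protein is an MXD repressor typical of cells that stop dividing and differentiate, had the largest change of the 9. It was at 1.87, 1.70 and 1.78 in si-CTL cells and at 3.48, 3.22 and 3.43 in si-Rsl24d1 cells at day 0. Every si-Rsl24d1 library was well above every si-CTL library. The log2 fold change was 1.596 (SE 0.08, limma adjusted p = 7.94e-12) and the mean rose from 2.44 to 9.42 TPM. On chromosome 5 of GRCm38 the gene runs from 34173883 to 34187720 on the minus strand. An antisense transcript, Gm42846, shares 514 of its exonic bases, and reads of the pair can be told apart only if strand was used in the quantification. The same limit holds for Mxd3 and Mxi1, whose exons share 105 bases with Prelid1 and 194 bases with Gm10197 on the opposite strand.

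Mxd3, whose protein is the MXD family member associated with dividing cells in S phase, fell. It was at 3.33, 3.30 and 3.35 in si-CTL and 2.63, 2.7 and 2.65 in si-Rsl24d1 cells, a change of -0.67 (SE 0.06, limma adjusted p = 1.74e-08), from 9.03 to 5.33 TPM. Mxi1, the most abundant of these 3 Mxd genes, was at 3.96 to 4.10 against 3.77 to 3.89, a difference of -0.20 that did not pass (limma adjusted p = 0.0246). With Mxd4 up and Mxd3 down, the sum of Mxd3, Mxd4 and Mxi1 was 26.7 ± 1.06 TPM in si-CTL and 27.9 ± 1.36 TPM in si-Rsl24d1 cells, and the libraries overlapped. The share of Mxd4 in that sum was 9.13% ± 0.67 and 33.7% ± 1.96, and that of Mxd3 was 33.8% ± 0.73 and 19.1% ± 1.52.

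**Figure D2:**
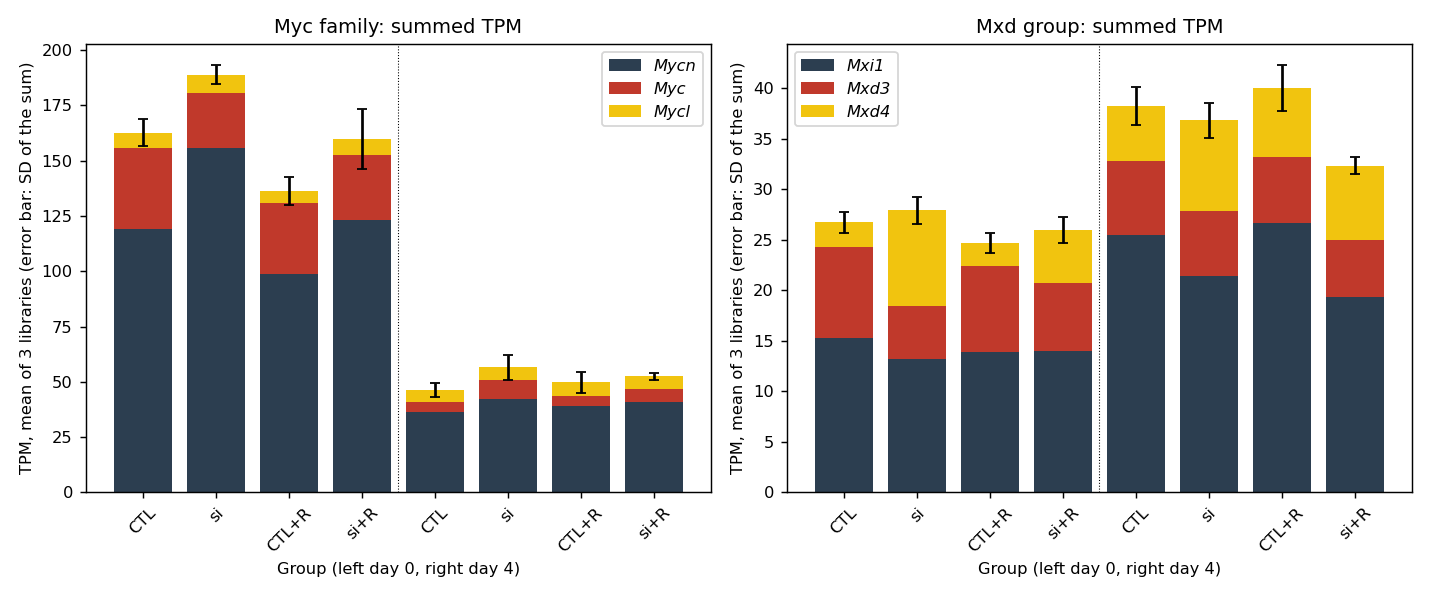
Summed TPM of the Myc genes (left) and of Mxd3, Mxd4 and Mxi1 (right) per group, stacked by gene, each the mean of 3 libraries with the SD of the sum. The Myc sum lay at 136 to 189 TPM at day 0 and at 46.2 to 56.6 TPM at day 4, whereas the Mxd sum lay at 24.7 to 27.9 TPM and at 32.3 to 40.02 TPM.

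Mga, the large MAX partner that also carries a T-box domain and scaffolds PRC1.6, was at 6.68, 6.42 and 6.30 in si-CTL cells and at 5.99, 6.08 and 5.89 in si-Rsl24d1 cells. The groups did not overlap, and the change was -0.48 (SE 0.12, limma adjusted p = 0.00313), from 88.0 to 62.4 TPM. The si-CTL libraries were more spread than the others, and the call was lost without si-CTL replicate 1 (-0.38, adjusted p = 0.0251) or si-Rsl24d1 replicate 3 (-0.43, adjusted p = 0.0185). Mnt, a broadly expressed repressor that pairs with MAX, was at 4.46 to 4.66 and 4.38 to 4.52, and the groups overlapped (-0.11, SE 0.12, limma adjusted p = 0.507).

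The E-box core was looked for in the start regions of the members, since the network's proteins bind it. The RefSeq table of GRCm38.p6 promoters used here, from 250 bases before to 50 bases after the start, held 10 regions of 8 members and was not matched for Myc. CACGTG, which reads the same on both strands, was found in the regions of 3 of these 8 genes, Mxd4, Mnt and Max, beside 8.09% of the 27025 genes in the table. The sites are shown with 12 bases on each side because these are the members whose start regions carry the network's own motif (capitals).
Mxd4, chr5:34187912-34187941, minus strand: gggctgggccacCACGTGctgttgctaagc
Mnt, chr11:74830789-74830818, plus strand: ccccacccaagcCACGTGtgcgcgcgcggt
Max, chr12:76962234-76962263, minus strand: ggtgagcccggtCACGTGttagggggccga
The core begins 219 bases before the annotated start in Mxd4, 123 bases before it in Mnt and 3 bases before it in Max. Of these genes Mxd4 rose in ESCs after knockdown, while Mnt and Max did not pass. The 250 bases before the start of Mxd4, the member with the largest change, run over chr5:34187711-34187960 on the minus strand.
Mxd4 upstream region: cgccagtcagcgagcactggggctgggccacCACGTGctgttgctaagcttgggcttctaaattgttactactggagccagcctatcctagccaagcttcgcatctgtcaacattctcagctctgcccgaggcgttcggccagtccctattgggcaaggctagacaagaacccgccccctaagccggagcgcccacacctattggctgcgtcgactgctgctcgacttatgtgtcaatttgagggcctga
A match is a stretch of letters only, and binding was not measured in these libraries.

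With ectopic RSL24D1, the change of Mxd4 was smaller and that of Myc did not pass. In the rescued ESCs, 4 of 9 members passed for si-Rsl24d1 against si-CTL, beside 13.7% of all genes, and Mxd4 was again the only one called, beside 1.36%. Mxd4 was at 1.65, 1.74 and 1.79 in si-CTL and at 2.56, 2.56 and 2.79 in si-Rsl24d1 cells with rescue. The libraries did not overlap and the change was 0.91 (SE 0.08, limma adjusted p = 1e-07), which is 56.9% of the change without rescue on the log2 scale. Without si-Rsl24d1 replicate 3 it was 0.83, below the 1.8-fold limit of 0.848. The test of the difference between both effects gave -0.69 (SE 0.12, limma adjusted p = 0.00152).

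Myc was at 5.10, 5.12 and 4.94 in rescued si-CTL and at 4.89, 4.82 and 5.05 in rescued si-Rsl24d1 cells, which overlapped (-0.13, SE 0.07, limma adjusted p = 0.206). The difference between its effects without and with rescue was 0.40 (limma adjusted p = 0.0234), and 0.38 (adjusted p = 0.00380) after median of ratios scaling. Mxd3 fell by 0.29 (SE 0.06, limma adjusted p = 0.00106), Mycn rose by 0.31 (SE 0.08, adjusted p = 0.00838) and Mycl rose by 0.37 (SE 0.07, adjusted p = 0.000493). For Mycn the call was lost when any of 5 of the 6 libraries was left out, all but si-Rsl24d1 replicate 2 (adjusted p of 0.0133 to 0.0545).

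Rescued were also set against unrescued si-Rsl24d1 cells at day 0, a comparison that shares its libraries with both above. Mxd4 was lower with rescue (-0.74, limma adjusted p = 4.43e-06, and -0.63 after median of ratios scaling) and Mxd3 higher (0.30, adjusted p = 0.00106, and 0.41 after scaling). Mycn was lower by -0.34 (adjusted p = 0.00494), but by -0.21 and not past the limit after scaling (adjusted p = 0.0187), and Myc was higher by 0.23 (adjusted p = 0.0198), or 0.36 after scaling (adjusted p = 8.54e-05). Mxd4, Mxd3 and Mycn are the 3 of 9 members that passed on the deposited scale, beside 15.3% of all genes. In si-CTL cells, rescue against no rescue gave 0 of 9 members past the test by limma, beside 0.0122% of all genes. At an unadjusted p under 0.05 there were 5 of 9, with Mycn and Mycl both at -0.27 (limma adjusted p = 0.0295 and 0.0244). The 5 are not set beside a share of all genes at that limit, and the median of all tested genes was shifted by -0.12. After median of ratios scaling 1 of 9 was under that unadjusted limit, with Mycn at -0.12 and Mycl at -0.14 (adjusted p = 0.222 and 0.0889). On that scale 0 of 9 members passed the adjusted test, beside 0% of all genes.

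**Figure D3:**
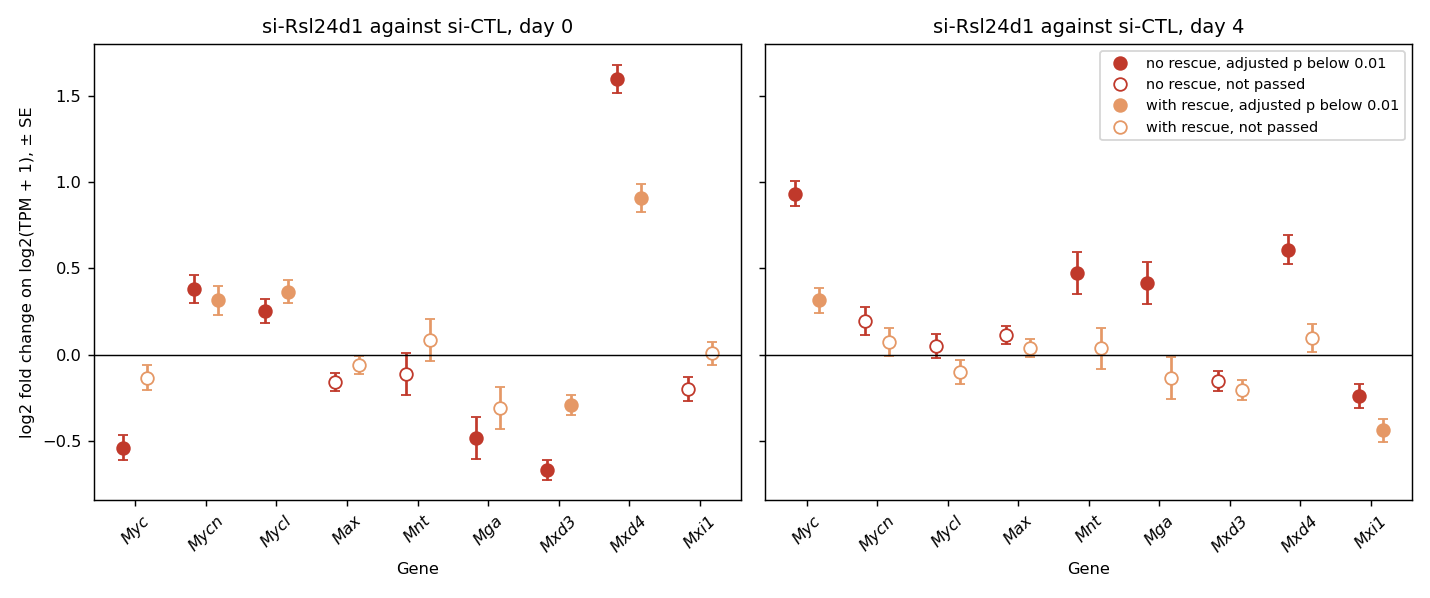
Log2 fold change of each gene for si-Rsl24d1 against si-CTL on the log2(TPM + 1) scale with its SE, at day 0 (left) and day 4 (right), without and with rescue, filled where limma's adjusted p was below 0.01. Mxd4 stood at 1.596 without and 0.91 with rescue at day 0, and Myc at -0.54 at day 0 and 0.93 at day 4 without rescue.

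During RA treatment of si-CTL cells the activators went down and Mxd4 and Mxi1 went up. All 9 members passed for day 4 against day 0 without rescue, beside 60.9% of all genes, and 4 were differentially expressed, beside 15% of all genes. After median of ratios scaling 8 passed, beside 61.6% of all genes, and 3 were differentially expressed. Of the pluripotency markers 11 of 12 fell (10 after scaling) and Nanog rose (0.79, from 184 to 319 TPM). Of 6 tested markers each, 5 of endoderm rose and Lama1 fell (-0.59), and 5 of fibroblasts rose and Thy1 fell (-1.44). The summed level of the mesoderm list was 30.7 to 32.7 TPM at day 0 and 11.3 to 11.7 TPM at day 4, and that of the neural list was 93.5 to 101.4 TPM and 37.3 to 37.7 TPM. Most of the neural sum at day 0 was Tubb3, which went from 65.8 to 15.8 TPM, while Pax6 went from 8.20 to 9.53 TPM. After scaling 2 of 5 tested neural markers rose and 3 fell, and 3 of 6 mesoderm markers fell and none rose, beside 30.8% of all genes in each direction. The part of these markers was not tested. Myc was at 2.43, 2.37 and 2.31 at day 4, far below every day 0 library, a change of -2.86 (SE 0.07, limma adjusted p = 4.53e-17, and -2.73 after median of ratios scaling), from 36.4 to 4.17 TPM. Mycn was at 5.11, 5.37 and 5.19, a change of -1.69 (SE 0.08, limma adjusted p = 7.38e-13, and -1.55 after scaling), from 119 to 36.5 TPM. Mnt fell by 0.88 on the log2 scale, by 0.75 after scaling, and so below the 1.8-fold limit there. Mxd4 rose to 2.76, 2.67 and 2.68 (0.92, SE 0.08, adjusted p = 6.92e-09, and 1.03 after scaling). Mxi1 rose by 0.70 (SE 0.07, adjusted p = 2.12e-08, and 0.84 after scaling), from 15.3 to 25.5 TPM.

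Mycl, Max, Mga and Mxd3 changed by -0.29, -0.34, -0.55 and -0.27, and by -0.17, -0.20, -0.41 and -0.15 after scaling, where Mxd3 did not pass (limma adjusted p = 0.0448). There were 6.09 ± 0.35 transcripts of the Myc genes per transcript of Mxd3, Mxd4 and Mxi1 at day 0 and 1.21 ± 0.15 at day 4, and the libraries were far apart. Against Max, the Myc genes went from 2.47 ± 0.045 to 0.891 ± 0.055 transcripts per Max transcript.

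In si-Rsl24d1 cells without rescue, Mxd4 did not pass between the days and was at 3.22, 3.41 and 3.31 at day 4 (-0.06, limma adjusted p = 0.513 against day 0). There 5 of 9 members passed, beside 55.8% of all genes, and Myc (-1.39) and Mycn (-1.87) were the 2 differentially expressed, beside 14.1%. Mycl (-0.49) fell, and Mxd3 (0.24) and Mxi1 (0.66) rose. With rescue, 6 of 9 members passed in si-CTL cells and 7 of 9 in si-Rsl24d1 cells, beside 59.2% and 58.1% of all genes. Myc, Mycn, Mxd4 and Mxi1 were the 4 called in the former, beside 15.6%, of which Mxi1 was below the 1.8-fold limit after median of ratios scaling (0.89 and 0.76), and Myc and Mycn the 2 called in the latter, beside 14.9%. After median of ratios scaling 7, 7 and 9 of 9 passed in these 3 comparisons, beside 58.4%, 61.2% and 60.8% of all genes. Mga, which fell in si-CTL cells without rescue, rose in rescued si-Rsl24d1 cells (0.48, limma adjusted p = 0.00172). It did not pass in unrescued si-Rsl24d1 cells (0.35, adjusted p = 0.0159, but 0.33 and 0.00347 after scaling) or in rescued si-CTL cells (0.30, adjusted p = 0.0322, and 0.16 and 0.122 after scaling). Across all 4 day comparisons Myc fell by 1.39 to 2.86 and Mycn by 1.32 to 1.87 on the log2 scale.

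At day 4 the order of Myc between the siRNAs was the reverse of that at day 0. Without rescue Myc was at 2.43, 2.37 and 2.31 in si-CTL and at 3.16, 3.39 and 3.36 in si-Rsl24d1 cells, without overlap. The log2 fold change was 0.93 (SE 0.07, limma adjusted p = 1.25e-08), from 4.17 to 8.89 TPM, and 0.79 (adjusted p = 2.89e-09) after median of ratios scaling, which is below the 1.8-fold limit. Mxd4 was again higher in si-Rsl24d1 cells, by 0.61 (SE 0.08, adjusted p = 1.65e-05), or 0.47 (adjusted p = 0.000134) after scaling. On the deposited scale 5 of 9 members passed, beside 30.9% of all genes, and Myc alone was called, beside 1.63%. After scaling 4 of 9 passed, beside 29.2% of all genes, and 0 were called. The test of the difference between the effects of both days gave 1.47 for Myc (SE 0.10, adjusted p = 1.58e-09) and -0.99 for Mxd4 (SE 0.12, adjusted p = 2.02e-06), and 6 of 9 members passed it, beside 30.9% of all genes. With rescue 4 of 9 passed the same test, beside 9.95%, and 1 of 9, Mxd4, passed that of the effects without and with rescue at day 0, beside 2.09%.

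The calls of the other members at day 4 rested on the scaling or on single libraries. Mycn did not pass on either scale (0.20, limma adjusted p = 0.0566, and 0.04 with adjusted p = 0.644 after scaling). Mnt was at 3.80, 4.37 and 4.26 against 3.69, 3.60 and 3.72 (0.48, limma adjusted p = 0.00393), but at 0.32 after scaling (adjusted p = 0.0112), and Mga at 0.42 (adjusted p = 0.00913) and 0.26 (adjusted p = 0.0293). In both, si-Rsl24d1 replicate 1 was the lowest of its group. For both the call was also lost without replicate 1 or 2 of si-CTL or replicate 2 or 3 of si-Rsl24d1 (Mnt 0.36 to 0.49, Mga 0.31 to 0.44). Mxi1 was lower, at -0.24 (adjusted p = 0.00838), and at -0.39 (adjusted p = 0.000149) after scaling. It missed the limit without any 1 of 5 of the 6 libraries, all but si-CTL replicate 2 (-0.27 to -0.21). Mxd3 was at -0.15 (adjusted p = 0.0384) and passed only after scaling (-0.29, adjusted p = 0.00121), while Mycl and Max did not pass and changed sign with the scaling.

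Markers of other cell types moved with the siRNA at day 4 too. Of the 8 endoderm markers 6 could be tested and all 6 rose in si-Rsl24d1 against si-CTL cells on both scales, beside 30.9% of all genes that passed, and the list's summed level was 337 to 372 TPM in si-CTL and 470 to 551 TPM in si-Rsl24d1 libraries. The 8 fibroblast markers summed to 92.7 to 101.5 TPM and 174 to 242 TPM, with 3 of 6 tested members higher on both scales. The mesoderm list summed to 11.3 to 11.7 TPM and 20.5 to 24.1 TPM, and the neural list to 37.3 to 37.7 TPM and 49.4 to 60.7 TPM, each with 2 tested members higher. After median of ratios scaling 2 of 5 tested neural markers were higher and 1 lower, and 2 of 6 mesoderm markers higher and none lower. These counts stand beside 14.7% and 14.5% of all genes. Most of the endoderm sum was Sparc, at 333 and 464 TPM on average. Most of the mesoderm sum was Hand1, at 7.54 and 17.8 TPM on average, and Pax6 of the neural list went from 9.53 to 7.72 TPM. Among the endoderm and fibroblast markers Fap was listed at 0 in 1 si-CTL library. The part of these lists in the levels of Myc and Mxd4 was not tested. At day 0 without rescue 1 of 6 endoderm markers fell and none rose (2 rose after scaling). The endoderm list summed to 188 to 200.7 TPM in si-CTL and 211.5 to 220.2 TPM in si-Rsl24d1 libraries, mostly Sparc (181 and 205 TPM on average). The fibroblast list summed to 37.3 to 46.7 TPM in si-CTL and 27.7 to 28.8 TPM in si-Rsl24d1 libraries.

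With rescue at day 4, Myc was at 2.48, 2.42 and 2.62 in si-CTL and at 2.83, 2.87 and 2.76 in si-Rsl24d1 cells (0.31, SE 0.07, limma adjusted p = 0.00617). The groups did not overlap, but the call was lost without any 1 of 4 libraries, replicates 1 and 2 of each group (adjusted p of 0.0230 to 0.0420). Mxi1 was at 4.70, 4.88 and 4.78 against 4.43, 4.32 and 4.30 and fell by 0.44 (SE 0.07, adjusted p = 0.00023). These 2 of 9 members passed, beside 5.87% of all genes. Mxd4 did not pass, at 2.88 to 3.01 and 2.94 to 3.16.

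Genes that work with the network were read from 5 lists of 49 genes written from general knowledge, with earlier results of these data known. At day 0 without rescue 5 of the 49 rose and 14 fell, beside 14.3% and 16.1% of all genes tested, and the median of the list was -0.09, beside -0.01 for all genes. Among genes of MYC protein turnover, Fbxw7, the substrate receptor of the ubiquitin ligase that marks MYC and MYCN for degradation, had the largest change. It was at 3.46, 3.28 and 3.04 in si-CTL cells and at 4.85, 4.71 and 4.75 in si-Rsl24d1 cells, without overlap, a change of 1.51 (SE 0.10, limma adjusted p = 3.42e-10). Usp28, which removes ubiquitin from MYC, fell by 0.68 (SE 0.08), and Skp2, another ligase receptor of MYC, fell by 0.32. With rescue Fbxw7 was higher by 0.95 (SE 0.10) and Usp28 lower by -0.30 (SE 0.08).

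The cofactors that MYC recruits to chromatin had 5 of 12 members lower and none higher, beside the same 16.1% and 14.3% of all genes, among them the helicase Ruvbl1 (-0.41), the actin-related Actl6a (-0.36) and the histone methyltransferase subunit Wdr5 (-0.31). Of the 13 SIN3-HDAC genes 4 fell and 1 rose, beside the same shares, with Sap30 (-0.43), Hdac2 (-0.30) and Hdac1 (-0.28) lower and Rbbp7 (0.16) higher. Of the 10 genes of PRC1.6 other than Mga, Pcgf6 (-0.48) and L3mbtl2 (-0.35) fell and Yaf2 (0.52) and E2f6 (0.36) rose, beside the same 16.1% and 14.3% of all genes. The other Max-like and Mlx genes, Mxd1 among them, had 0 of 4 past the test by limma, beside 30.4% of all genes. At an unadjusted p under 0.05 there were 0 of 4, not set beside a share of all genes at that limit.

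At day 4 against day 0 in si-CTL cells 34 of the 49 partner genes fell and 4 rose, beside 60.9% of all genes that passed, with a median of -0.39 beside -0.10 for all genes. After median of ratios scaling 31 fell and 6 rose, beside 30.8% of all genes in each direction. All 12 cofactors fell, among them the acetyltransferase gene Kat2a (-0.68) and Ep400 (-0.66), which encodes a chromatin remodeller. L3mbtl2 (-1.51) and Tfdp1 (-1.13) of PRC1.6 and Hdac1 (-0.87) fell, whereas Sin3b (0.79) and Yaf2 (0.73) rose. At day 4, si-Rsl24d1 against si-CTL gave 14 of 49 higher and none lower, beside 30.9% of all genes that passed, but 8 higher and 10 lower after median of ratios scaling, beside 14.7% and 14.5%.

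The list of genes known to be induced by MYC held 54 genes, mostly of ribosome production, nucleotide synthesis and translation. At day 0 without rescue 17 fell, 3 rose and 34 did not pass, beside 16.1% of all genes lower and 14.3% higher, with a median of -0.11 beside -0.01 for all genes. Paics (-0.47, 395 to 285 TPM), an enzyme of purine synthesis, Noc4l (-0.45) of small subunit assembly and the DNA glycosylase Ung (-0.43) had the largest falls. Ccnd2 (cyclin D2) rose by 1.04 (SE 0.16, limma adjusted p = 3.2e-05), and Utp20 (0.51) and Apex1 (0.18) rose too. With rescue 4 fell and 3 rose, beside 13.7% of all genes that passed.

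In si-CTL cells under RA 45 of the 54 fell and 1 rose, beside 60.9% of all genes that passed, with a median of -0.67 beside -0.10 for all genes. After scaling 41 fell and 3 rose, beside 30.8% of all genes in each direction. Tcof1 (-1.58), which serves ribosomal RNA transcription, the transferrin receptor Tfrc (-1.40) and spermidine synthase Srm (-1.34) were lowest. At day 4, with Myc higher in si-Rsl24d1 cells, 6 of the 54 were higher and 8 lower than in si-CTL cells, beside 30.9% of all genes that passed, and 3 were higher and 18 lower after scaling, beside 14.7% and 14.5%.

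Of 10 genes known to be repressed by MYC, 3 rose and 3 fell at day 0 without rescue, beside 14.3% and 16.1% of all genes, and all 3 that rose did so by more than 1.8-fold, beside 4.18% of all genes called in either direction. The growth arrest gene Gadd45g rose by 1.70 (SE 0.07), the kinase inhibitor Cdkn1a by 1.18 (SE 0.05) and the kinase inhibitor Cdkn2b by 1.06 (SE 0.07). Cdkn1a is also a target of p53. Ndrg2 (-0.51), Ndrg1 (-0.33) and Cdkn1b (-0.28) fell. Under RA in si-CTL cells 5 rose and 2 fell (6 and 1 after scaling), beside 60.9% of all genes that passed, with Cdkn2b (1.73) highest and Gadd45g lower by -0.32.

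Germline genes that PRC1.6 silences were read beside Mga. At day 0 without rescue 3 of the 12 rose and 4 fell, beside 14.3% and 16.1% of all genes, with Meioc (0.90) and Taf7l (0.67) higher and Stag3 (-0.47), Stk31 (-0.39) and Zcwpw1 (-0.34) lower. Under RA in si-CTL cells 11 rose and none fell (12 rose after scaling), beside 60.9% of all genes that passed, with a median of 0.65 beside -0.10 for all genes. Dazl, an RNA-binding protein of germ cells, went from 5.87 to 71.2 TPM (3.40, SE 0.10), and Tex101 (1.46) and Slc25a31 (1.15) rose. At day 4 they were lower in si-Rsl24d1 than in si-CTL cells, 9 lower and 1 higher (9 and 0 after scaling), beside 30.9% of all genes that passed, with a median of -0.43 beside 0.13 for all genes. Dazl was at 6.12, 6.13 and 6.27 in si-CTL and 5.39, 5.49 and 5.52 in si-Rsl24d1 cells (-0.71, SE 0.10, limma adjusted p = 1.96e-05), without overlap. The E-box core was in the start regions of 7 of these 12 genes and of 16 of the 46 Myc-induced genes in the promoter table, 58.3% and 34.8%, and of 1 of 7 Myc-repressed genes, beside 8.09% of all genes. The lists were written as known targets of proteins that bind this core, so these shares are not an independent test of targeting.

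**Figure D4:**
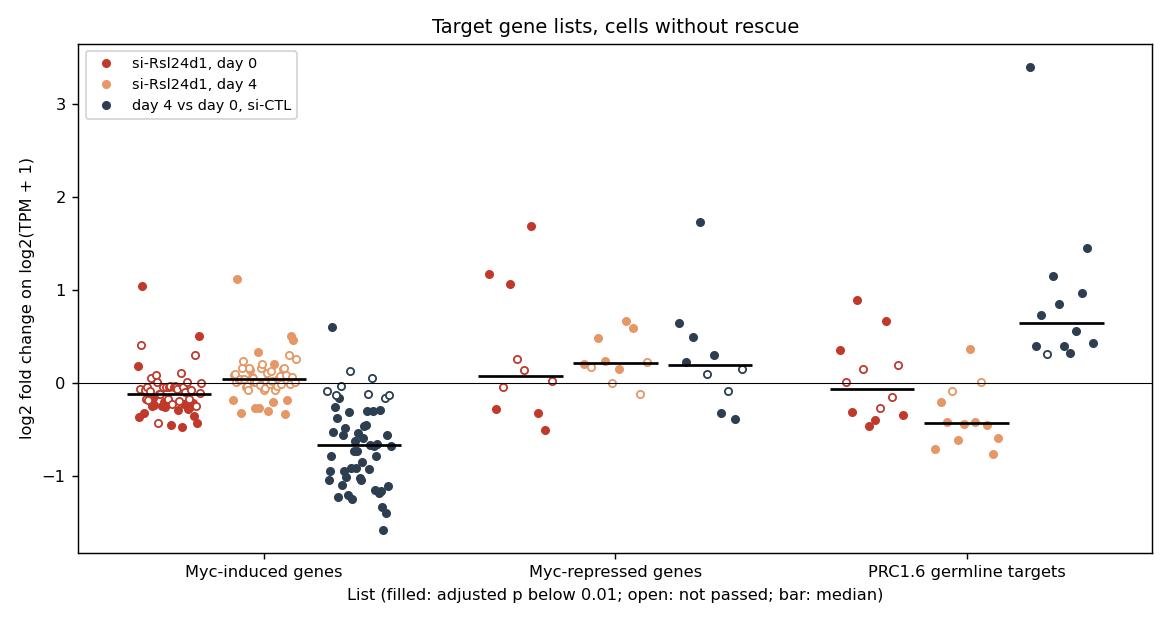
Log2 fold change on the log2(TPM + 1) scale of each gene of 3 target lists (points, filled where limma's adjusted p was below 0.01) with the list median (bar), in cells without rescue. The Myc-induced medians were -0.11 for si-Rsl24d1 at day 0 and -0.67 for day 4 against day 0 in si-CTL cells, and Dazl is the point at 3.40.

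Over the 24 libraries, the genes whose levels followed each member most closely differed between members. By Pearson's r on log2(TPM + 1), Sult4a1 (0.996) and Hmox1 (0.996) were nearest to Myc, Spry2 (0.995) and Phc1 (0.995) to Mycn, and Tcf7 (0.957) and Pcyox1l (0.958) to Mycl. The replication helicase gene Mcm2 (0.937) and Sh3gl1 (0.935) were nearest to Max, Fam53c (0.954) and Rptor (0.954) to Mnt, and Gmps (0.959) and Atad2 (0.952) to Mga. For the Mxd genes they were Pebp1 (0.969) and Grb7 (0.961) with Mxd3, Irx3 (0.980) and the PRC1 subunit gene Phc2 (0.977) with Mxd4, and Tkfc (0.978) and Reep4 (0.978) with Mxi1. These 24 libraries share 8 groups, and a day difference alone gives a high r.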

How the data were processed

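The authors deposited log2(TPM + 1) values per gene, from Salmon quantification imported by tximport. TPM keep no library size, so the depth is unknown, no count model could be run and the precision rests on 3 libraries per group. Comparisons were fitted in R 4.3.3 by limma 3.58.1 (8 group means, empirical Bayes with trend, no replicate term), two-sided, with Benjamini-Hochberg adjustment over all 16447 genes tested, which have a mean log2(TPM + 1) of at least 0.5. The fold changes are on the log2(TPM + 1) scale and understate those of low genes. An exact permutation test of 3 against 3 libraries cannot go below 0.1 and was not used. The methods and the labels disagree on the library kit, on LIF during RA treatment and on collection after transfection (72 h, or 48 h in sample descriptions), and the submitters' notes name a human genome build. The members, lists and tests were chosen with earlier results of these data known. Named genes are the 9 members, Rsl24d1, the 2 genes nearest each member, and up to 3 rises and 3 falls per list and comparison among genes past the test whose libraries did not overlap, of which 1 is not reported here. Gene positions come from gencode vM21 (GRCm38) and promoters from RefSeq. The fit was tested on simulated data. Alternatives were a pseudocount of 0.1 or 2, no filter, a filter at 1.5, scaling by the median of ratios, a block for replicate number, a fit of only the groups compared, other fold limits, and each library left out. Same-numbered libraries did not deviate together (mean correlation -0.0173 over 84 pairs), and 0 pairs of libraries were identical.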

Additional observations from a re-analysis of the deposited data

Results flagged for a closer look

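Effects of the siRNA that differed between the days or with rescue, by the interaction term in limma, were picked out for a closer look. Without rescue the effect at day 4 minus that at day 0 was 1.47 for Myc (SE 0.101, adjusted p = 1.58e-09), 0.899 for Mga (SE 0.171, adjusted p = 0.000335), 0.512 for Mxd3 (SE 0.0828, adjusted p = 6.74e-05) and -0.987 for Mxd4 (SE 0.117, adjusted p = 2.02e-06). These 4 also passed after median of ratios scaling, with 1.33, 0.74, 0.37 and -1.12, and Mycn (-0.34, adjusted p = 0.0046) and Mycl (-0.34, adjusted p = 0.00057) passed only after it, from -0.19 and -0.20. It was 0.277 for Max (adjusted p = 0.00514) and 0.585 for Mnt (adjusted p = 0.00966), which did not pass after that scaling (0.12 and 0.43). For Max 5 single libraries and for Mnt 11 of 12 ended the call when left out, with Max at 0.24 to 0.28 and Mnt at 0.47 to 0.63. The 6 of 9 members that passed stand beside 30.9% of all genes tested.

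At day 0 the effect with rescue minus that without was -0.689 for Mxd4 (SE 0.117, adjusted p = 0.00152), 1 of 9 members beside 2.09% of all genes. With rescue, the effect at day 4 minus that at day 0 was -0.811 for Mxd4 (adjusted p = 5.72e-05), 0.448 for Myc (adjusted p = 0.00384), -0.466 for Mycl (adjusted p = 0.00181) and -0.446 for Mxi1 (adjusted p = 0.00282), 4 of 9 beside 9.95% of all genes. The call of Myc ended without any 1 of 6 libraries (0.40 to 0.43) and that of Mxi1 without 1, replicate 2 of rescued si-CTL at day 4 (-0.40).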

How the results depend on the processing

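No member that passed in a comparison changed its direction under any alternative. Without the fold limit the counts of members called became 6, 4 and 3 at day 0 (si-Rsl24d1 against si-CTL without rescue, with rescue, and rescued against unrescued si-Rsl24d1), 5 and 2 at day 4 (siRNA without and with rescue), 9, 5 and 7 for day 4 against day 0 (si-CTL and si-Rsl24d1 without rescue, si-Rsl24d1 with rescue), and 6, 1 and 4 for the interactions (by day without rescue, by rescue, by day with rescue). The shares of all genes beside those counts are given with each comparison above. With a pseudocount of 2 the counts of members called were 0 for the siRNA at day 0 with rescue and at day 4 without, and 2 for day 4 against day 0 in si-CTL cells. With 0.1 it was 1 for the interaction by day with rescue, and with median of ratios scaling 0 for the siRNA at day 4. With the 1.8-fold limit the lists gave 1 of 49 partner, 1 of 54 Myc-induced, 3 of 10 Myc-repressed and 1 of 12 germline genes at day 0 without rescue, beside 4.18% of all genes. Under RA in si-CTL cells without rescue they gave 7, 21, 1 and 5, beside 15% of all genes, and 6, 15, 1 and 6 after median of ratios scaling. With only the groups compared 3 germline genes passed at day 0. Leaving out 1 library gave 0 to 1 members for the siRNA at day 0 with rescue and for the interaction by day with rescue, and 4 to 6 germline genes at day 0.

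Differences that did not pass and changed sign after median of ratios scaling were, for si-Rsl24d1 rescue at day 0, Max 0.122, Mnt 0.0349 and Mga 0.0173, for si-CTL rescue Max 0.0426, Mxd3 0.0612, Mxd4 0.0530 and Mxi1 0.0115, for the siRNA at day 4 Mycl -0.0856 and Max -0.0415, for the siRNA with rescue at day 0 Mxi1 -0.0110, for RA in rescued si-CTL cells Mycl -0.0213, and for the interaction by day with rescue Mnt 0.0156. With 1 library left out, others that did not pass spanned 0, Mnt (-0.00702 to 0.178) and Mxi1 (-0.0493 to 0.0628) at day 0 with rescue, Max (-0.0446 to 0.0348) and Mnt (-0.182 to 0.00229) for si-Rsl24d1 rescue, Mycn (-0.00089 to 0.150), Max (-0.0164 to 0.0697) and Mnt (-0.0498 to 0.127) at day 4 with rescue, and Mnt (-0.142 to 0.0429) in that interaction. The cause was not tested.

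The replicate numbers do not pair the samples. With replicate number as a block 5 of 58 member calls were lost, Mycn at day 0 with rescue (adjusted p = 0.0149), Mga and Mxi1 at day 4 (0.0145 and 0.0114), Myc at day 4 with rescue (0.0120) and the Mnt interaction (0.0155). The number of calls lost was 6 with no filter, 6 with median of ratios scaling and 17 with only the groups compared. Depth is unknown, which limits any statement on low genes such as Mxd4.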
